A study of Mus musculus with 20 samples.

Results

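Gene expression in the cerebellum of wild-type mice was compared between 4 and 11 weeks of age. The 5 arrays, 3 of cerebellum at 4 weeks and 2 at 11 weeks, are those of 20 whose title code stands for wild type, cerebellum and either age, and all 22626 probe sets that are not array controls were considered on them. The other arrays hold knock-in cerebellum and the forebrain of both genotypes, each with 3 arrays at 4 weeks and 2 at 11 weeks. The labels give no strain, do not name the knocked-in allele, and put the later age at 11 weeks in the descriptions and 12 weeks in the titles. It is called 11 weeks here. The labels name no treatment other than age, and nothing says that the arrays hold RNA of separate mice, so the p-values reflect only how far these samples differ among themselves, which could be technical. For the 2 wild-type forebrain arrays at 11 weeks cerebellum is named in the source field and at the start of the title, while the title code and description name forebrain.

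The mouse cerebellum gains most of its cells after birth. The precursors of granule neurons stop dividing in the early postnatal weeks, whereas oligodendrocytes go on wrapping axons in myelin into young adulthood. Myelin is rich in cholesterol, which the brain makes itself because plasma cholesterol does not cross the blood-brain barrier. The ages compared therefore span late myelination in a tissue whose neurons are already in place.

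The 5 arrays were alike in quality. Their median intensities ran from 1037 to 1072, the GAPDH ratio of 3' to 5' signal, a gauge of RNA integrity, from 0.823 to 0.864 and the actin ratio from 1.05 to 1.11. Correlations between arrays on the log2 scale were 0.975 to 0.980 for the 4 pairs of one age and 0.967 to 0.978 for the 6 pairs of different ages. On a principal component that carried 36.1% of the variance lay the 4-week arrays at -16.1 to -3.80 and the 11-week arrays at 9.29 and 21.2. The labelled tissue matched its markers. Pcp2, a Purkinje cell protein, read 45678 to 55244, and Gabra6, the GABA receptor subunit of granule neurons, read 37572 to 46884. Bcl11b and Camk2a, both of forebrain neurons, read at most 29.8 and 385, under the 40th percentile of each array (a median intensity of 681 over the 20 arrays), which served as the lower limit of measurement. All 6 probe sets of Y-linked genes lay under that limit on all 5 arrays, and an Xist probe set, from the inactive X chromosome of females, read 5840 to 9130.

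Few genes passed the test between the ages. Of 9105 genes tested, 18 changed at an adjusted p under 0.05 (0.198% of genes; limma with Benjamini-Hochberg adjustment over all genes), 14 of them lower (0.154%) and 4 higher (0.0439%) at 11 weeks. The median difference over all genes was 0.01 on the log2(intensity + 16) scale used for every difference below, and 85 genes differed by more than 1. At an unadjusted p under 0.05 there were 904 genes (9.93%). The genes that fell include Col3a1, Gsn, Fabp7 and Marcks, and those that rose include Nbl1. The count rests on the spread pooled over all 20 arrays: 6 genes passed in a fit to the 10 cerebellar arrays, and 0 passed in a fit to these 5 arrays alone, where 956 had an unadjusted p under 0.05 and the smallest adjusted p was 0.0943. It was 10 without 4-week replicate 1 and 30 without 11-week replicate 1. In a fit with a block for each replicate number within each genotype and region, 2 genes passed, Col3a1 and Necab3. That fit left 4 residual degrees of freedom. All 18 kept their sign in every alternative run that tested them. The arrays of the ages did not overlap for any of the 18, so leaving out an array could not reverse a sign. Only Cd160, Ppic, Sfmbt2 and Slc38a5 stayed called whichever of the 5 arrays was left out. Of those, Cd160, Sfmbt2 and Slc38a5 were too dim to be tested under a filter on these 5 arrays.

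**Figure D1:**
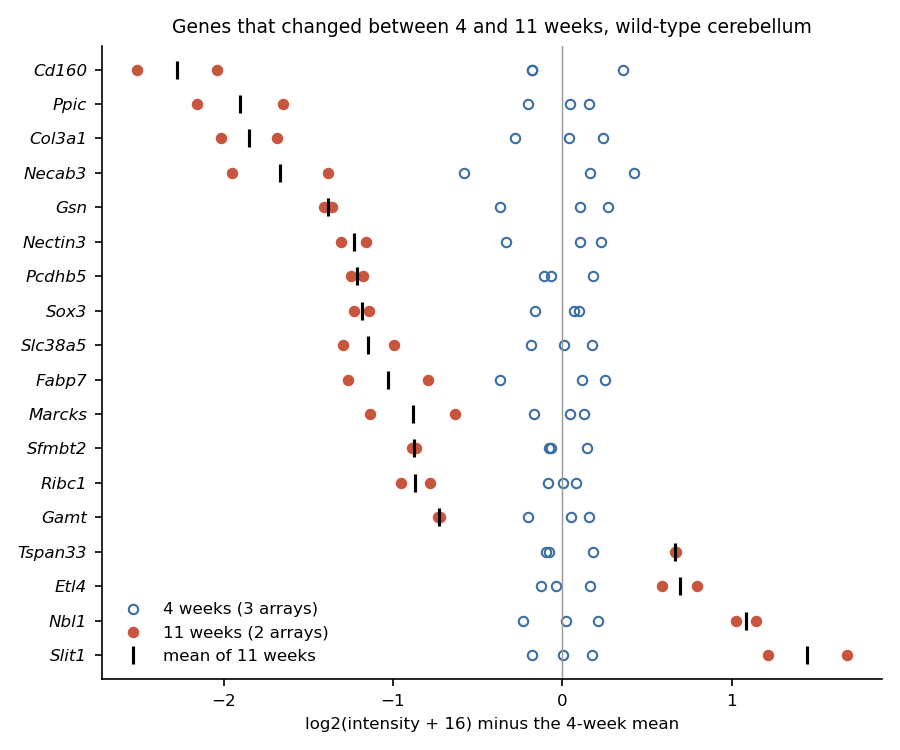
Each row is 1 of the 18 genes that changed, and each point is 1 array, as log2(intensity + 16) minus the mean of the 3 arrays at 4 weeks (open circles, 4 weeks; filled circles, 11 weeks; bar, mean of the 2 arrays at 11 weeks). The 14 genes above the others lie to the left of all 4-week arrays at 11 weeks, from Cd160 at -2.28 to Gamt at -0.73, and the 4 at the bottom lie to the right, from Tspan33 at 0.66 to Slit1 at 1.45.

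Among genes of the extracellular matrix, Col3a1, a fibrillar collagen of the meninges and vessel walls, fell. Its intensity was 1619, 1293 and 1861 at 4 weeks and 478 and 378 at 11 weeks. The 11-week values lay under the limit of measurement, so the fall was at least 2.49-fold; the log2 difference was -1.85 ± 0.27 (standard error of the fit, as for all differences; limma, adjusted p = 0.00743). Of the 25 measured genes of the meninges and fibrillar matrix, Col3a1 was the 1 that passed. Col1a1, a chain of type I collagen, read 1094, 1051 and 1894 at 4 weeks and 295 and 262 at 11 weeks. The difference of -2.16 ± 0.56 did not pass (limma, adjusted p = 0.156). Both 11-week values of Col1a1 lay under the limit, so the size of its difference is not well measured. Col4a1 and Nid1, both of basement membranes, differed by -1.28 ± 0.29 and -1.36 ± 0.44 without passing (adjusted p = 0.100 and 0.265). Both 11-week arrays lay below all 3 of the 4-week arrays for 10 of the 25 genes (13.5% of all genes) and above them for 5 (15.7% of all genes). The 5 included Lum, Dcn and Mgp, a pair of small proteoglycans and a matrix mineralization inhibitor of fibroblasts, at 0.48, 0.33 and 0.39. The median of the list was -0.11, and 14 of the 25 were below 0. Col5a2, another fibrillar collagen, differed by 0.18 ± 0.20.

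Several genes that fell are known from glia or from immature neural cells. Fabp7, the brain fatty acid binding protein of radial and Bergmann glia, read 8485, 6064 and 9340 at 4 weeks and 4506 and 3248 at 11 weeks. The ages did not overlap, and the mean went from 7963 ± 1699 (SD, n = 3) to 3877 ± 890 (SD, n = 2), a log2 difference of -1.03 ± 0.19 (limma, adjusted p = 0.0282). It was the 1 gene that passed of 29 measured in the astrocyte and Bergmann glia list, whose median was 0.04. Gfap, the astrocyte intermediate filament, differed by -0.16 ± 0.27 (adjusted p = 0.912). Marcks, an actin-binding substrate of protein kinase C that is abundant in growing neurites, read 12716, 10981 and 13457 and then 7954 and 5610, a difference of -0.88 ± 0.17 (adjusted p = 0.0439). Its 6 probe sets differed by -0.96 to -0.60, and both 11-week arrays were below the 4-week arrays for 5 of them. Sox3, a transcription factor of neural progenitors, fell from 684, 671 and 568 to 263 and 281 (-1.19 ± 0.19; adjusted p = 0.0107). The third 4-week value and both 11-week values lay under the limit, so the fall against the limit was at least 1.01-fold.

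Markers of newborn and migrating neurons gave no call among 26 measured, but 12 of the 26 had both 11-week arrays below all 4-week arrays (13.5% of all genes) and 3 had both above (15.7%). Dcx, the microtubule protein of migrating neurons, read 791, 686 and 1373 at 4 weeks and 538 and 424 at 11 weeks (-0.90 ± 0.26; adjusted p = 0.208). Marcksl1, the relative of Marcks, read 4491, 3477 and 5868 and then 2890 and 2505 (-0.74 ± 0.20; adjusted p = 0.165). Tmsb10, an actin-sequestering thymosin of young neurons, differed by -0.46 ± 0.13 (adjusted p = 0.198). Stmn1, a microtubule destabilizer also listed there, differed the other way, by 0.47 ± 0.13 (adjusted p = 0.190), as did Tubb3 at 0.37 ± 0.15. Of 16 measured genes of cell division, none passed either (limma; 5 had both 11-week arrays above the 4-week arrays, against 15.7% of all genes, and 1 below, against 13.5%).

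Nectin3, Pcdhb5, Slc38a5 and Cd160, membrane proteins of different kinds, also fell. Nectin3, an immunoglobulin-like adhesion molecule, read 2351, 1588 and 2148 at 4 weeks and 800 and 887 at 11 weeks, with no overlap between the ages (-1.23 ± 0.19; limma, adjusted p = 0.00933). Its 4 measured probe sets all differed downwards, by -1.23 to -0.28. Pcdhb5, a clustered protocadherin whose paralogs are similar in sequence, read 479, 494 and 590 and then 209 and 220, all under the limit (-1.21 ± 0.18; adjusted p = 0.00743). Slc38a5, a glutamine transporter, also lay under the limit throughout, at 547, 476 and 615 and then 265 and 212 (-1.15 ± 0.15; adjusted p = 0.00381). Cd160, a receptor of natural killer and T cells, had the largest difference of the 18 genes, -2.28 ± 0.29, but from intensities of 763, 521 and 519 to 131 and 91, of which only 1 was above the limit. Dim genes such as these passed the filter on arrays of other groups, and the size of their differences depends on the offset of 16 added before the logarithm.

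The remaining genes that fell have varied functions. Ppic, the proline isomerase cyclophilin C, read 793, 666 and 859 at 4 weeks and 160 and 234 at 11 weeks, a fall of at least 1.22-fold against the limit and of -1.90 ± 0.25 on the log2 scale (limma, adjusted p = 0.00381). Necab3, a neuronal calcium-binding protein, was well measured at both ages. It read 4155, 2468 and 4968 and then 1411 and 948, so the mean went from 3864 ± 1275 (SD, n = 3) to 1180 ± 328 (SD, n = 2), a difference of -1.67 ± 0.26 (adjusted p = 0.00933). Gamt, which carries out the last step of creatine synthesis, read 1953, 1516 and 1809 and then 1053 and 1044 (-0.73 ± 0.12; adjusted p = 0.0149). Sfmbt2, a Polycomb group protein, and Ribc1 differed by -0.88 ± 0.12 and -0.87 ± 0.15 (adjusted p = 0.00381 and 0.0149), with every Sfmbt2 value and both 11-week Ribc1 values under the limit.

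Of the 4 genes that rose, 3 were above the limit of measurement on all 5 arrays. Nbl1, a secreted antagonist of bone morphogenetic proteins, read 897, 1075 and 1228 at 4 weeks and 2352 and 2166 at 11 weeks, 2.12-fold higher (1.08 ± 0.17; limma, adjusted p = 0.00933). Tspan33, a tetraspanin, read 897, 909 and 1092 and then 1538 and 1531 (0.66 ± 0.12; adjusted p = 0.0282), and its 4 probe sets differed by 0.20 to 0.66. Etl4 read 977, 1196 and 1041 and then 1614 and 1866 (0.69 ± 0.12; adjusted p = 0.0149), but its other probe set differed by -0.16. Slit1, a secreted repellent of growing axons, was under the limit on all 5 arrays, at 155, 117 and 136 and then 335 and 468 (1.45 ± 0.27; adjusted p = 0.0354), and it lost its call in each of the 5 fits that left out an array. Slit1 was the 1 member that passed of 42 measured genes of axon guidance and cell adhesion, whose median was -0.14.

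Myelin genes were the list with the lowest median, -0.43 over 30 measured genes against 0.01 over all genes, although a single member passed. Gsn, the actin-severing protein gelsolin, which is abundant in oligodendrocytes, read 17317, 12463 and 19436 at 4 weeks and 6269 and 6067 at 11 weeks. The mean went from 16405 ± 3574 (SD, n = 3) to 6168 ± 143 (SD, n = 2), a log2 difference of -1.38 ± 0.20 (limma, adjusted p = 0.00723). Its 4 measured probe sets differed by -1.95 to -1.07, and 3 of them passed. Of the 30 genes, 22 had a difference below 0 (48.3% of all genes), 18 had both 11-week arrays below all 4-week arrays (13.5%) and 5 had both above (15.7%). In whole tissue, fewer oligodendrocytes and less RNA per oligodendrocyte cannot be told apart.

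Of the members that did not pass, Mal and Ugt8a came closest. Mal, a proteolipid of compact myelin, read 17729, 16220 and 19833 and then 9232 and 10809 (-0.84 ± 0.16; limma, adjusted p = 0.0501). Ugt8a, which makes the myelin lipid galactosylceramide, read 11173, 9950 and 12080 and then 4942 and 5151 (-1.13 ± 0.22; adjusted p = 0.0528). For both genes the ages did not overlap. Fa2h, which hydroxylates the fatty acids of myelin lipids, read 7812, 6464 and 7794 and then 3815 and 3856 (-0.93 ± 0.24; adjusted p = 0.151). Mog, on the outer surface of myelin, read 4307, 3061 and 3828 and then 1828 and 1336 (-1.23 ± 0.28; adjusted p = 0.110). Cldn11, which forms the tight junctions of the sheath, differed by -1.01 ± 0.23 (adjusted p = 0.113).

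The genes of the main structural proteins of myelin had smaller differences. Mbp, myelin basic protein, read 78355, 72719 and 74375 at 4 weeks and 59436 and 54570 at 11 weeks, a non-overlapping difference of -0.40 ± 0.11 that did not pass (limma, adjusted p = 0.196). Its 8 probe sets differed by -0.66 to 0.01, 7 of them below 0. Mobp differed by -0.52 ± 0.21, Cnp by -0.41 ± 0.19 and Mag by -0.62 ± 0.21, with adjusted p from 0.308 to 0.503. The 5 members with both 11-week arrays above the 4-week arrays were Plekhb1, Car2, Qdpr, Apod and Pmp22, with differences of 0.19 to 0.33. Car2, carbonic anhydrase 2 of oligodendrocytes, read 22570, 21540 and 20431 and then 26227 and 26721. None of the 5 passed.

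**Figure D2:**
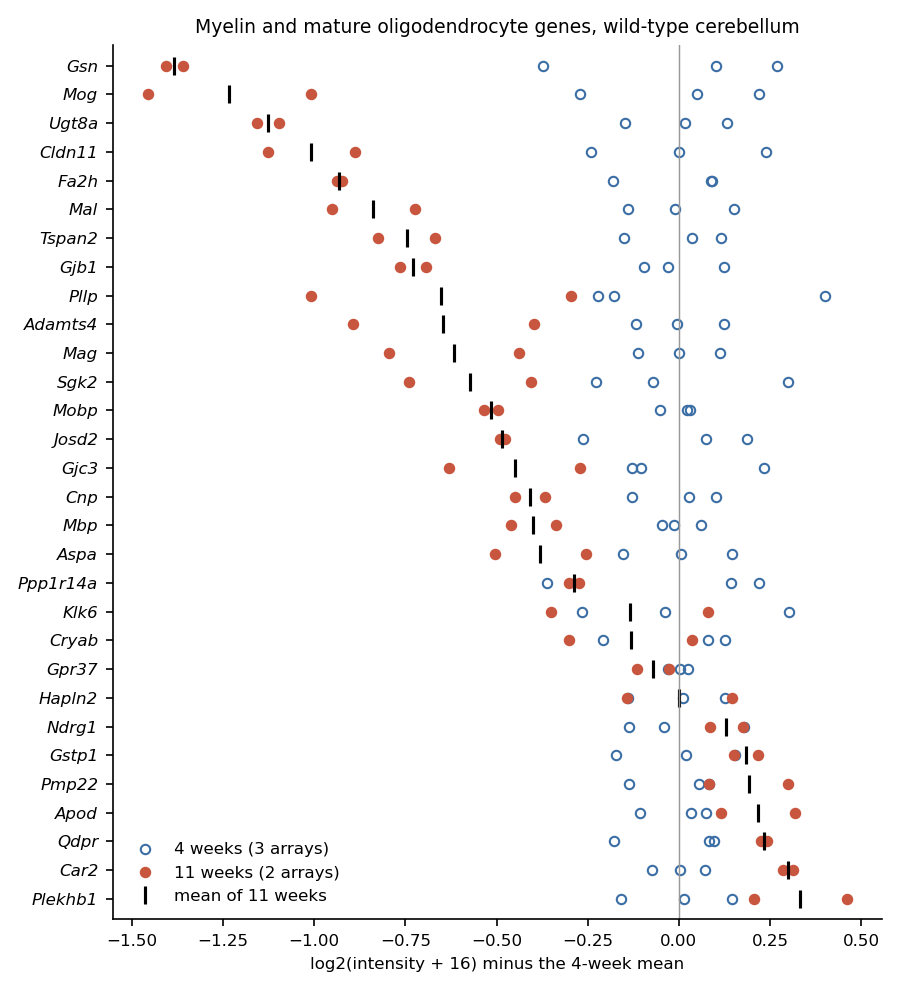
Each row is 1 of the 30 measured genes of myelin and mature oligodendrocytes, sorted by their age difference, and each point is 1 array, as log2(intensity + 16) minus the mean of the 3 arrays at 4 weeks (open circles, 4 weeks; filled circles, 11 weeks; bar, mean of the 11-week arrays). Filled circles lie left of all open ones for 18 genes, from Gsn to Aspa, and right of them for 5, with Plekhb1 at 0.33 the highest mean.

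Oligodendrocyte precursor genes gave no call among 14 measured. Olig2, the lineage's transcription factor, read 1410, 1004 and 1467 at 4 weeks and 551 and 648 at 11 weeks (-1.07 ± 0.33; limma, adjusted p = 0.249). Sox10, which drives myelin genes, differed by -0.52 ± 0.14 (adjusted p = 0.165) and Olig1 by -0.41 ± 0.17 (adjusted p = 0.407). Pdgfra, the growth factor receptor that defines precursors, differed by 0.11 ± 0.25. The median of this list was -0.13, and 6 of the 14 had both 11-week arrays lower (13.5% of all genes).

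Genes of cholesterol synthesis formed the other list with a low median, -0.41 over 19 measured genes. No member passed (limma), yet 16 of the 19 were below 0 (48.3% of all genes), 12 had both 11-week arrays below all 4-week arrays (13.5%) and 0 had both above (15.7%). Hmgcs1, which condenses acetyl groups early in the pathway, was the brightest. It read 29464, 21531 and 25889 at 4 weeks and 15796 and 16039 at 11 weeks (-0.67 ± 0.16; adjusted p = 0.134), and its 4 probe sets differed by -0.78 to -0.59. Sqle, which epoxidizes squalene, read 6306, 4877 and 6052 and then 3029 and 3171 (-0.88 ± 0.22; adjusted p = 0.134), the lowest difference of the list. Idi1, the isomerase of the isoprene units, read 5812, 4041 and 4257 and then 3200 and 2629 (-0.68 ± 0.21; adjusted p = 0.251). Fdps, which joins those units, differed by -0.67 ± 0.18 (adjusted p = 0.161) and Mvd, the decarboxylase that makes them, by -0.57 ± 0.16 (adjusted p = 0.196). Srebf2, the transcription factor of the pathway, differed by 0.05 ± 0.16 (adjusted p = 0.963) at its brightest probe set. Its other probe set differed by -0.28, with both 11-week arrays below the 4-week arrays, and did not pass. The values of 4-week replicate 2 were the lowest of the 3 for 14 of the 19 genes, and for 16 of 30 myelin genes, against 3158 of all 9105. Leaving out 1 array at a time put the cholesterol median between -0.51 and -0.26 and the myelin median between -0.47 and -0.32.

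Because these genes lay low together, the 250 bases before their starts were read for motifs. The promoters are those of RefSeq on GRCm38.p6, which held 15 of the 19 genes. Searched on both strands were 4 motifs, CCAAT, TCACNCCAC (a form of the sterol regulatory element, of which a longer form was also searched and is not reported here), TCACGTGA (an E-box) and ATTGGCTG (which holds CCAAT on its other strand). CCAAT was singled out after its counts were seen. It stood in at least 1 promoter of 15 of the 15 genes and in 15 of their 18 promoters, against 33.8% of all 32851 promoters and 34.7% of the promoters of tested genes. In the myelin list it stood in 15 of 36 promoters. TCACNCCAC stood in 1 of the 18 promoters, that of Hmgcs1, against 1.05% of all promoters. ATTGGCTG stood in 3 of the 18 (3.55% of all promoters) and TCACGTGA in 0 (0.785%). Hmgcs1 is shown as the brightest member, and Idi1 for comparison as one without TCACNCCAC. Both also hold ATTGGCTG. In the sequences, matches to CCAAT and TCACNCCAC on either strand are in capitals. A match describes the letters only and does not show that a factor binds.
Hmgcs1, chr13:119690101-119690350, plus strand: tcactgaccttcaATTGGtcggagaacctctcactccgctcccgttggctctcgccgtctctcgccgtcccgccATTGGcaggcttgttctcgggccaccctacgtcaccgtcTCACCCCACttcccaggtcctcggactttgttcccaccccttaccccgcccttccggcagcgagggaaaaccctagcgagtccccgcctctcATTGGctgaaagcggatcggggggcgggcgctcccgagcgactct
Idi1, chr13:8885356-8885605, plus strand: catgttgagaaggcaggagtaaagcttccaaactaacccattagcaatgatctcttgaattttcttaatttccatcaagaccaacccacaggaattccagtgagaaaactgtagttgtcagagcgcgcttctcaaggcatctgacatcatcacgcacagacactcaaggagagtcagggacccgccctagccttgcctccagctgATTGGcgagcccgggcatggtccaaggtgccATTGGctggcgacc

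Choroid plexus genes had the highest median of the lists, 0.64 over 12 measured genes. None passed (limma), but 12 of 12 were above 0 (51.7% of all genes) and 8 had both 11-week arrays above all 4-week arrays (15.7%). The choroid plexus is the epithelium that secretes cerebrospinal fluid, and that of the fourth ventricle adjoins the cerebellum. Kl, the hormone co-receptor klotho, read 1010, 1744 and 1429 at 4 weeks and 2207 and 2925 at 11 weeks (0.89 ± 0.35; adjusted p = 0.386). F5, coagulation factor V, read 593, 608 and 405 and then 980 and 1027 (0.91 ± 0.26; adjusted p = 0.203). Folr1, the folate receptor, read 1077, 1373 and 1367 and then 1898 and 2218 (0.69 ± 0.30; adjusted p = 0.461). Ttr, transthyretin, the most abundant choroid plexus transcript, read 86245, 92964 and 93809 and then 91963 and 90106 at its brightest probe set (0.00 ± 1.06), while its other 2 probe sets had both 11-week arrays higher. The standard errors of these genes, up to 1.06, pool the spread of all 8 groups of arrays. The part of choroid plexus tissue in the samples in other age differences was not tested.

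**Figure D3:**
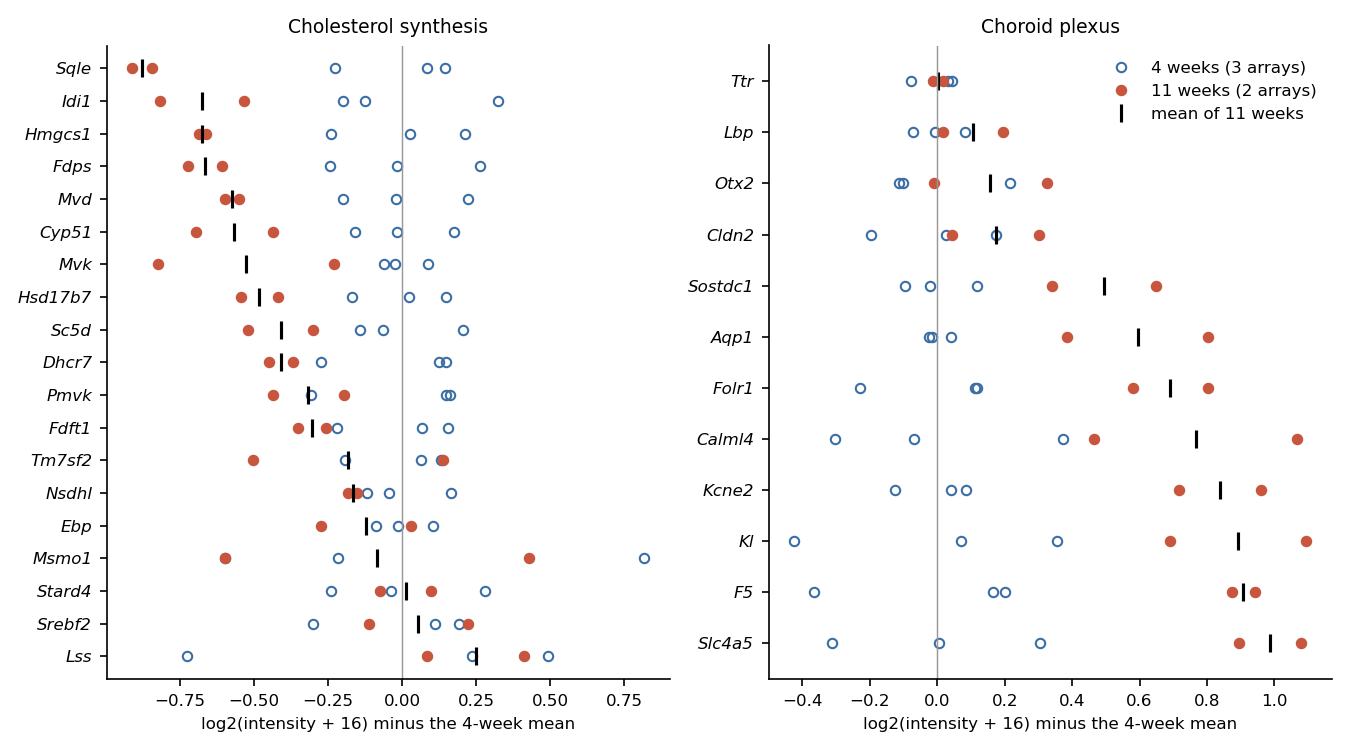
Each row is 1 gene, of 19 for cholesterol synthesis (left) and 12 for choroid plexus (right), and each point is 1 array, as log2(intensity + 16) minus the mean of the 3 arrays at 4 weeks (open circles, 4 weeks; filled circles, 11 weeks; bar, mean of the 11-week arrays). For 12 of the 19 genes on the left both filled circles lie left of all open ones, and for 8 of the 12 on the right they lie to the right.

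Lists of cerebellar neurons held no call (limma). Over 21 Purkinje cell genes the median was 0.09, and 8 were higher (15.7% of all genes) and 1 lower (13.5% of all genes) on both 11-week arrays. Calb1, the calcium buffer calbindin, read 59992, 62533 and 54595 at 4 weeks and 65997 and 69180 at 11 weeks (0.20 ± 0.10; adjusted p = 0.539). Pcp2 read 52974, 50503 and 55244 and then 47892 and 45678 at its brightest probe set, with no overlap between the ages (-0.18 ± 0.50). Its 3 probe sets differed by -0.18 to -0.10, and the ages were apart for only this 1. The 19 mature granule neuron genes had a median of -0.15, with 17 below 0 (48.3% of all genes) and 5 lower and 0 higher on both 11-week arrays. Among them, Gabra6 differed by -0.13 ± 0.66. The standard errors of Pcp2 and Gabra6 pool the spread of the forebrain arrays, where both genes lay under the limit. Neurod1, a transcription factor kept on in granule neurons, read 31023, 35995 and 36146 and then 30182 and 29462 (-0.20 ± 0.11; adjusted p = 0.592). Igfbp5, a binding protein of insulin-like growth factors, differed by -0.23 ± 0.20 (adjusted p = 0.792).

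Stress, activity and clock genes held no call. Of 29 heat shock proteins and chaperones, 13 had both 11-week arrays above all 4-week arrays (15.7% of all genes) and 1 below (13.5%), with a median of 0.18. Bag3, a co-chaperone of selective autophagy, read 1280, 939 and 816 and then 2199 and 1547 (0.88 ± 0.24; limma, adjusted p = 0.162). Hspa8, the constitutive heat shock protein and the brightest of the list, differed by 0.05 ± 0.13. Its 4 probe sets differed by -0.81 to 0.05, 3 of them below 0, and the ages overlapped for each. Of 24 immediate early genes, which neuronal activity induces, 10 had both 11-week arrays lower (13.5% of all genes) and 0 higher (15.7%), with a median of -0.15. Fos read 14852, 11608 and 11657 and then 11223 and 7707 (-0.44 ± 0.22; adjusted p = 0.550). Of 18 circadian clock genes, 8 were higher (15.7% of all genes) and 1 lower (13.5%) on both 11-week arrays. Per2, a repressor of the clock, read 736, 1329 and 918 and then 2068 and 1375 (0.79 ± 0.26; adjusted p = 0.265), and Arntl, its activator, differed by -0.45 ± 0.20 (adjusted p = 0.449). The hour at which tissue was taken is not given in the labels, and its part in these differences was not tested.

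Immune and vascular genes gave no call either. In a list of complement, interferon and antigen presentation genes (21 measured), both 11-week arrays were higher for 9 (15.7% of all genes) and lower for 3 (13.5%), and the median was 0.25. H2-K1, a class I histocompatibility gene, read 4068, 3935 and 3550 and then 4789 and 5180 (0.37 ± 0.24; limma, adjusted p = 0.669). Its 4 probe sets differed by -0.37 to 0.37, 1 of them below 0, and 1 of the 4 had both 11-week arrays higher. Ifit3, which interferon induces, read 992, 1161 and 915 and then 1546 and 1882 (0.74 ± 0.20; adjusted p = 0.169). The 19 microglial genes had a median of -0.03, and the 21 genes of endothelium and pericytes one of -0.17. The lists not described here had medians of -0.15 to 0.25, as the plot of list medians shows.

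**Figure D4:**
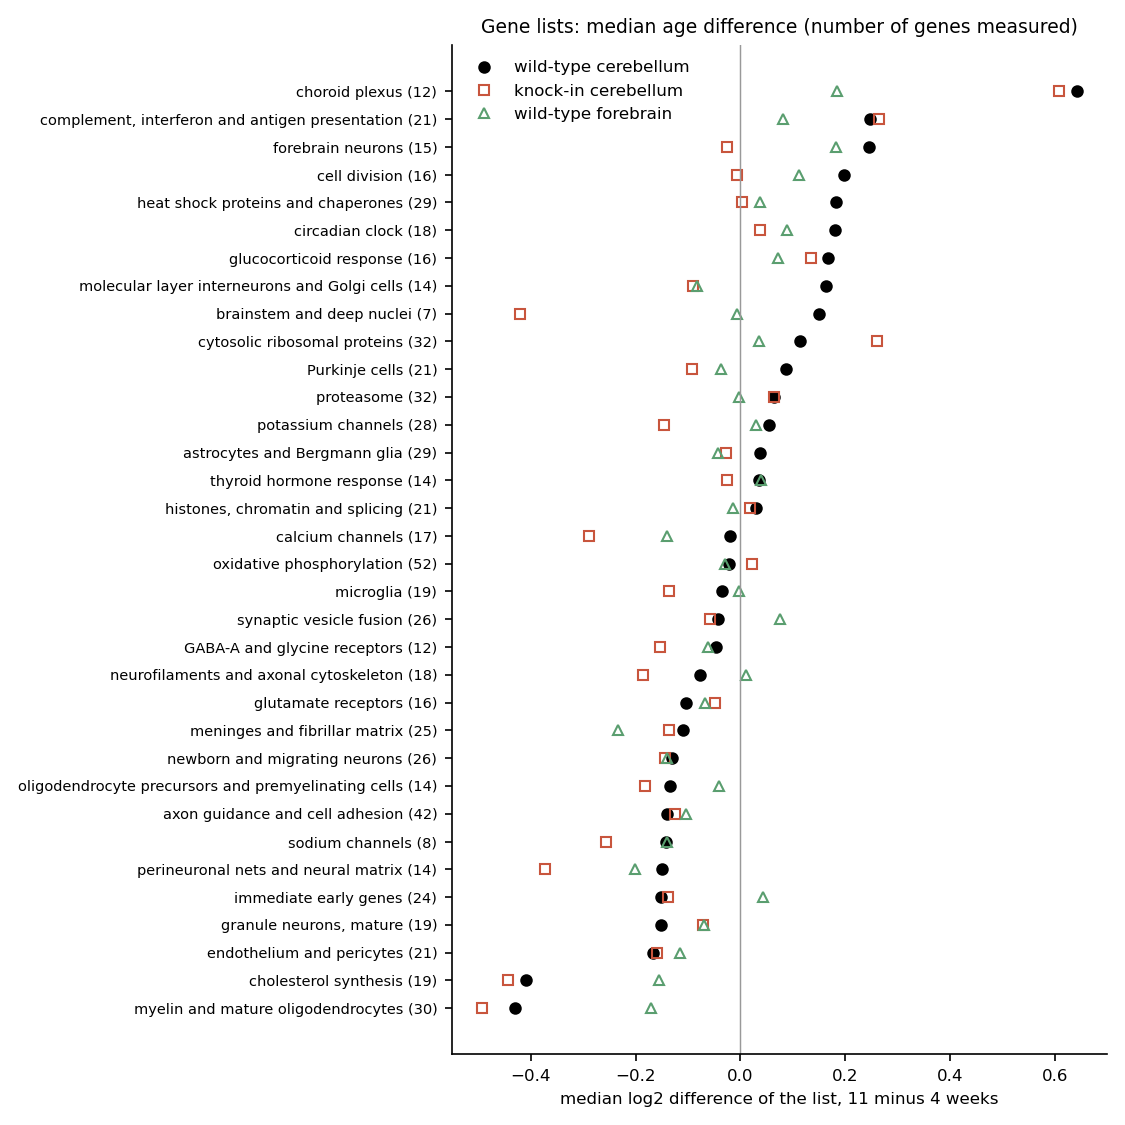
Median log2 difference (11 minus 4 weeks) of the 34 gene lists with at least 5 measured genes, in wild-type cerebellum (filled circles), knock-in cerebellum (squares) and wild-type forebrain (triangles), with the number of genes measured in parentheses. Myelin (-0.43) and cholesterol synthesis (-0.41) lie lowest and choroid plexus (0.64) highest in wild-type cerebellum, and knock-in cerebellum lies close to it for these 3 lists.

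The same ages were compared in knock-in cerebellum, which shares no array with wild-type cerebellum. There 47 genes changed (0.516% of 9105), 7 higher (0.0769%) and 40 lower (0.439%). All 14 genes that fell in wild type were also below 0 in knock-in cerebellum, as were 52.1% of all genes. Of the 14, 7 passed there too, namely Gsn, Col3a1, Necab3, Nectin3, Slc38a5, Gamt and Ribc1. Both 11-week arrays lay below all 4-week arrays for 11 of the 14 in knock-in cerebellum (15.9% of all genes). Gsn, for example, read 11947, 17184 and 14998 and then 5078 and 4640 in knock-in cerebellum (-1.58; limma, adjusted p = 0.00135). Cd160, Pcdhb5, Sfmbt2 and Marcks differed by -0.33, -0.04, -0.16 and -0.29 there, each with an adjusted p over 0.5. Of the 4 that rose, 3 were above 0 in knock-in cerebellum and none passed; Nbl1 came closest, at 0.79, and Slit1 differed by -0.48. Across the 9105 genes the differences of both genotypes correlated at r = 0.32 (rho = 0.30), a description only, since genes are not independent replicates.

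**Figure D5:**
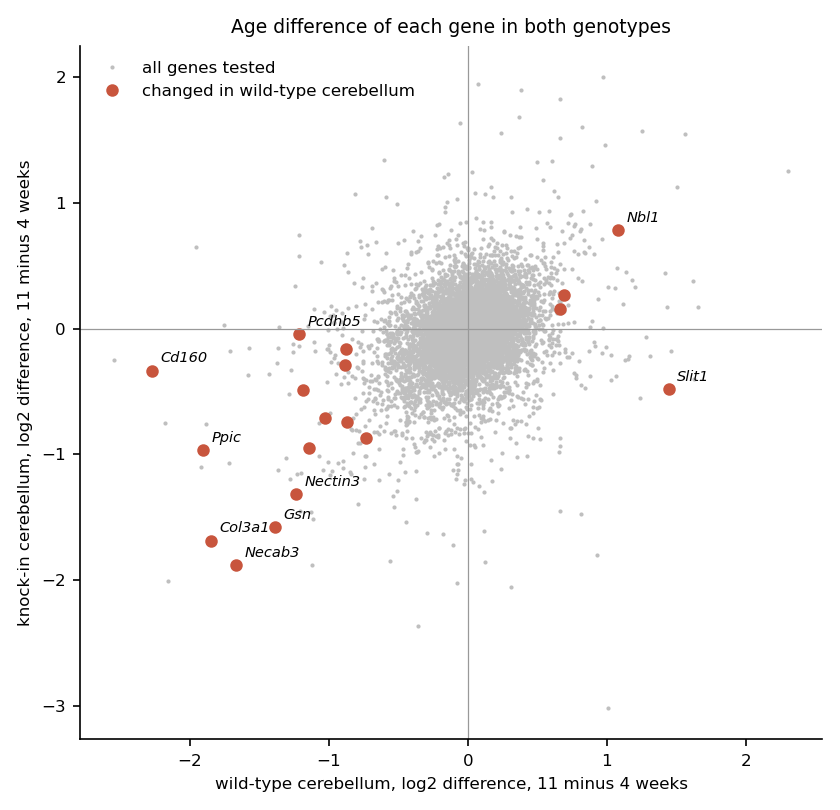
Each grey point is 1 of 9105 genes, placed by its log2 difference (11 minus 4 weeks) in wild-type cerebellum (x axis) and knock-in cerebellum (y axis), and the 18 genes that changed in wild-type cerebellum are in red. The 14 that fell lie below 0 on both axes, from Necab3 at -1.88 on the y axis to Pcdhb5 at -0.04, and Slit1 lies at 1.45 on the x axis and -0.48 on the y axis.

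Myelin and cholesterol genes lay low in knock-in cerebellum as well. The myelin median was -0.49 there, with 5 of 30 passing lower (0.439% of all genes). Among them were Ugt8a at -1.46 (limma, adjusted p = 0.00534), Mal at -1.16 (adjusted p = 0.00278) and Tspan2 at -1.20 (adjusted p = 0.00915). The cholesterol median was -0.44, with 15 of 19 lower on both 11-week arrays (15.9% of all genes). In that list Hmgcs1 at -1.07 (limma, adjusted p = 0.00534) and Cyp51 at -1.15 (adjusted p = 0.0151) passed lower (0.439% of all genes). The choroid plexus median was 0.61, with 6 of 12 higher on both 11-week arrays (14% of all genes). The immune list had a median of 0.27. The chaperone median was 0.00, with 6 of 29 higher (14% of all genes) and 2 lower (15.9%) on both 11-week arrays; the difference of this list between genotypes was not tested. The difference of the 2 age changes was tested gene by gene, and 2 genes passed (0.022% of 9105), neither of them among the 18. Those were Tac1, the precursor of substance P, and D430019H16Rik. Tac1 read 123, 302 and 153 at 4 weeks and 299 and 477 at 11 weeks in wild type, and its change with age exceeded that in knock-in cerebellum by 4.02 ± 0.49 (limma, adjusted p = 0.00526). For D430019H16Rik the excess was 2.29 ± 0.31 (adjusted p = 0.00856), from wild-type values of 260, 365 and 283 and then 395 and 738. Of the 10 cerebellar arrays, 1 was above the limit of measurement for this gene and 2 for Tac1, so the sizes of both differences depend on unmeasured levels.

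In wild-type forebrain, 1 gene changed between the ages (0.011% of 9105), Msn, the actin linker moesin, which fell there by 0.90 and differed by 0.03 in wild-type cerebellum. All 14 genes that fell in cerebellum were below 0 there, as were 49.7% of all genes, and 9 of the 14 had both 11-week arrays below the 4-week arrays (10.1% of all genes). Col3a1 differed by -1.41, Gsn by -0.98 and Slc38a5 by -0.67, none of which passed (limma). Necab3 and Ribc1 differed by -0.11 and -0.04. The 4 genes that rose were below 0 in forebrain, from -0.03 for Nbl1 to -0.28 for Slit1. The myelin median in forebrain was -0.17, with 10 of 30 lower and 9 higher on both 11-week arrays (9.5% of all genes), the cholesterol median -0.15 and the choroid plexus median 0.18. The difference of the age change between regions passed for no gene (0% of 9105; limma; 475 with an unadjusted p under 0.05), so none of these changes was shown to differ between cerebellum and forebrain. The same applies to the 18 genes between genotypes.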

How the data were processed

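Total RNA was hybridised to 20 single-colour oligonucleotide arrays. The authors deposited 1 linear intensity per probe set and array; their unit was read from the values, and the software that made them is not given in the sources used here. Of 22690 probe sets, 64 were controls; of the rest, 20380 had a single gene symbol in GEO's platform annotation, 691 several and 1555 none, and 20351 were matched to RefSeq by Entrez number. From the deposited intensities log2(intensity + 16) was computed. Kept were 15627 probe sets that exceeded an array's 40th percentile on 2 or more arrays, with the brightest standing for each gene (9105 genes). Limma 3.58.1 (lmFit, eBayes; R 4.3.3, data.table, version 1.17.8) fitted 8 group means to all 20 arrays, with 12 residual and 3.41 prior degrees of freedom, and genes were called at a two-sided Benjamini-Hochberg adjusted p under 0.05. A bound given as at least a fold sets the dimmer age at the limit. Arrays have no read depth, and their number limits the precision. The script was tested on simulated data.

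The members and the 37 gene lists were chosen with earlier results of these data known. The naming rule took the called genes that were above the limit on all arrays of their brighter age, up to 5 called members of each list, the 3 brightest members of lists without a call, and 10 fixed genes. Cd160, Sfmbt2, Slc38a5, Pcdhb5, Sox3 and Ribc1, and list members named beyond that rule, were chosen after their values were seen. Alternatives were the offset, the filter, quantile and loess normalization, the arrays in the fit, the moderation, the probe set rule, the replicate block and leaving out each array. Deviations of arrays with the same replicate number were nearly uncorrelated between the ages (0.01 and 0.04 in wild-type cerebellum). With so few arrays this cannot show whether the numbers pair them. Whether the 2 regions came from the same animals was not tested. Promoters were searched with Python 3 and pandas.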

Additional observations from a re-analysis of the deposited data

Results flagged for a closer look

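The change with age differed between wild-type and knock-in cerebellum for 2 of 9105 genes, by the test of the difference itself in limma. For Tac1 the difference was 4.02 ± 0.49 on the log2(intensity + 16) scale (adjusted p = 0.00526). Tac1 went from 459, 1069 and 864 to 64.7 and 96.1 in knock-in cerebellum, and overlapped between the ages in wild type. For D430019H16Rik the difference was 2.29 ± 0.31 (adjusted p = 0.00856), and its values in knock-in cerebellum went from 464, 622 and 682 to 192 and 208. In forebrain both genes were above the limit of measurement on all 10 arrays, which carried them past the filter. In cerebellum Tac1 was above it on 2 of 10 arrays, both knock-in at 4 weeks, and D430019H16Rik on 1 of 10, so the values lie mostly under the limit and the sizes of both differences are not well measured.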

How the results depend on the processing

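The count of 18 genes in wild-type cerebellum stayed within 1.5 times under offsets of 1 (23) and 64 (18), no filter (19), a filter on these 5 arrays (17), quantile and loess normalization (23 each) and the mean of a gene's probe sets (22). It was 35 with an intensity trend and robust moderation, 31 over all kept probe sets, 6 with the 10 cerebellar arrays alone and 0 with the 5 arrays alone. Leaving out each array in turn gave 10 to 30. The replicate block gave 2 for this comparison and 1 for the difference between genotypes. Whether the replicate numbers pair the arrays is not known. The 2 genes of the difference between genotypes became 0 with the filter on these 5 arrays, 0 with the 10 cerebellar arrays and 4 over all kept probe sets, and 2 to 5 with an array left out. The difference between regions, 0 genes, became 1 with the mean of a gene's probe sets and 0 to 2 with an array left out. The causes were not tested. With 2 arrays at 11 weeks precision is low, and 8 of the 14 genes that fell were under the limit of measurement on both 11-week arrays. A lone 11-week array was assumed to vary like the other groups. Any batch that goes with age cannot be told apart from it.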
